A study of Mus musculus with 38 samples.

Results

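When SOX9 was induced in cultured epidermal stem cells (EpdSCs), 33788 of 116042 H3K4me1 domains (29.1%) had no counterpart in the list of the same cells without doxycycline (DOX). Of these culture gains, 3795 lay on a domain that had also been gained in skin, and these are called shared gains here. A shared gain is therefore a domain of the wild-type (WT) SOX9 culture list that had no 1 bp overlap without DOX, and that overlapped an H3K4me1 domain of week (W)1 or W2 skin which was itself without overlap at day (D)0. Shared gains made up 11.2% of the culture gains (95% interval 10.9 to 11.6%), whereas 4.70% of the 82254 WT domains that were also called without DOX lay on a skin gain. Over the whole WT list the share was 6.60%. These counts are what the rule selects and are given as a description.

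The data are MINT-ChIP profiles, in which chromatin of several samples is barcoded, pooled and immunoprecipitated together. Skin EpdSCs came from the back skin of male mice of the genotype K14rtTA; TRE-myc-Sox9, in which a keratin 14 promoter drives the DOX-dependent activator and a tetracycline-responsive promoter drives MYC-tagged Sox9, so that all groups, D0 included, carried both transgenes. DOX was injected at postnatal day 21 and continued in the chow for the 0, 1, 2, 6 or 12 weeks that name the groups, and for W12 the study used neonatal skin grafted onto immunodeficient hosts and induced after it had healed. Cells were sorted as CD49f-high, Ly6A-high and CD34-negative, without CD31, CD45, CD117 and CD140a. Culture cells are labelled K14rtTA; TRE-myc-Sox9varients. They were EpdSCs that carried the Krt14-rtTA activator, and were transduced with lentivirus for WT SOX9, ΔHMG (without the DNA-binding HMG domain) or ΔTA (without the transactivation domain) and selected with puromycin. The series has 38 samples, and its 14 lists of intervals were made from pooled samples: 5 of H3K4me1 and 5 of H3K27ac in skin, and 4 of H3K4me1 in culture. None holds a value per replicate, so that no spread between replicates and no test can be given, and read depth is unknown. The labels place the W12 samples in the same libraries as a W2 replicate. All 8 genes fixed as markers of basal keratinocytes, such as Krt5, Krt14 and Trp63, had an H3K27ac peak within 1000 bp of a start site at every time point, and of 12 markers of other skin cells between 1 and 2 had one (Pmel, Dct or Pecam1).

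Monomethylation of histone H3 at lysine 4 (H3K4me1) is placed by the MLL3/4 methyltransferases and marks enhancers that are primed as well as those in use. Acetylation of lysine 27 (H3K27ac) is placed by p300 and CBP and marks enhancers and promoters that are active. SOX9 is a high-mobility-group transcription factor that specifies hair follicle stem cells (HFSCs) in embryonic skin and is kept silent in the interfollicular epidermis, and HMG domains of the SOX family read the letters ACAAAG or ACAATG in the minor groove.

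As examples, 3 shared gains at which H3K27ac also appeared in skin are printed as 300 bp of GRCm38 around the summit of the W2 H3K27ac peak. The plus strand is shown, with the SOX letters of either strand in capitals. These examples are not typical, since 5.30% of shared gains had a W2 H3K27ac peak. The same 300 bp held no SOX letters at 5430427O19Rik, Ypel2, Gm14325, Mylip and Aagab, and held them at Btd, Cdk19 and Fhit. The domains are named for the nearest protein-coding start site. The Zbtb20 domain lies in an intron of that gene, which encodes a zinc-finger repressor. The Runx1 domain lies in an intron of Runx1, a transcription factor of hair follicle stem cells. The Ccn2 domain lies in an intron of the neighbouring gene Enpp1, with the start site of Ccn2, a matricellular target of YAP, 51570 bp away.
Zbtb20, chr16:43557514-43557813: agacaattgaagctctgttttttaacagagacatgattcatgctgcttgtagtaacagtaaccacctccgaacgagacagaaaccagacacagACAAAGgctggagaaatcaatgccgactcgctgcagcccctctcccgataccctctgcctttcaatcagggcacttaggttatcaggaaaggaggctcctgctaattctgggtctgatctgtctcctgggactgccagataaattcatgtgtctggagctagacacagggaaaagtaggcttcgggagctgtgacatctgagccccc
Runx1, chr16:92725641-92725940: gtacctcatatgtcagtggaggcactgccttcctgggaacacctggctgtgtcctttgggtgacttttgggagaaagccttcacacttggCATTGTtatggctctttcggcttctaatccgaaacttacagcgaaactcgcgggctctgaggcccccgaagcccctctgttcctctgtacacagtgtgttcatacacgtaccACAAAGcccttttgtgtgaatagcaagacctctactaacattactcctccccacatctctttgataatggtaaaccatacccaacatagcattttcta
Ccn2, chr10:24648156-24648455: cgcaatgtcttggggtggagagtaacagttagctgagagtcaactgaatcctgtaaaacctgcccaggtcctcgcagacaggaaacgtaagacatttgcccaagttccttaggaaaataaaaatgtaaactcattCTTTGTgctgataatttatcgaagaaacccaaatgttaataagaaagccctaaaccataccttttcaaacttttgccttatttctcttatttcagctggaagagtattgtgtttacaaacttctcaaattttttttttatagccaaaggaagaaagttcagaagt

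A second set shows the facing SOX pair, in which ACAAT is followed after 3 to 5 bases by ATTGT. SOX9 can bind such paired sites as a dimer. The 4 shared gains of highest WT score with a pair in the central 1 kb are printed as 60 bp, plus strand, with both half-sites in capitals.
Insc, chr7:114747711-114747770: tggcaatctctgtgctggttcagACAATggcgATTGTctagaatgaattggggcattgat
Pla2g5, chr4:138850514-138850573: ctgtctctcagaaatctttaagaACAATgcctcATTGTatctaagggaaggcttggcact
Ptprc, chr1:137787323-137787382: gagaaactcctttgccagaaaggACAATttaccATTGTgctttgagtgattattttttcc
Camkmt, chr17:85349347-85349406: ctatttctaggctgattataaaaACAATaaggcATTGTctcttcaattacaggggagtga

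Most shared gains were small domains far from promoters. Their width had a median of 866 bp (quartiles 465 and 1427 bp), wider than the 603 bp of the other 29993 WT gains and narrower than the 1078 bp of WT domains also called without DOX. The score of a domain, a whole number of about 10 times the −log10 of its q-value, had a median of 40 in shared gains, 33 in the other WT gains and 50 in domains also called without DOX. Fold enrichment over the local background had a median of 3.56 in shared gains and ranged from 1.76 to 10.6, and the median was also 3.56 in domains called without DOX. Of the shared gains, 2714 lay wholly inside their skin gain. At the edge of the rule the smallest overlap was 2 bp and 65 shared gains overlapped by under 200 bp, while 42 of the other WT gains ended within 200 bp of a skin gain without touching it. In the other direction, the nearest domain without DOX was a median of 7344 bp away, and 1 bp at the closest. They were spread over 20 chromosomes, and 359 of them lay within 10000 bp of the shared gain before them, so that neighbouring members are not independent.

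By position, 3391 shared gains (89.4%, 95% interval 88.3 to 90.3%) lay over 2500 bp from any annotated start site, beside 86.2% of the other WT gains and 76.1% of all WT domains. The midpoint fell in an intron in 54.4%, between genes in 41.8% and in an exon in 3.85%. Over all WT domains these shares were 56.9%, 36.0% and 7.11%. The difference in distal position from the other WT gains was 3.17 points (95% interval 2.08 to 4.20). Set beside the 19910 other WT gains without a D0 domain in skin, of which 90.3% were distal, the difference was −0.95 points (−2.05 to 0.08).

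That second set matters for several comparisons. By the rule nearly all shared gains lay where skin had no H3K4me1 domain at D0 (12 of them also touched a D0 domain with another part of their length), whereas 33.6% of the other WT gains lay in a domain that D0 skin already had. Intervals of shares are exact Clopper-Pearson and those of differences are Newcombe intervals, both at 95%, and they cover counting error only.

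H3K27ac was nearly absent from these places at D0 and was found at a few of them afterwards. At D0, 11 of the 3795 shared gains overlapped an H3K27ac peak (0.290%, 0.145 to 0.518%), beside 14.9% of all WT domains. At W1 the number was 113 (2.98%, 2.46 to 3.57%, beside 16.2% of all). At W2 it was 201 (5.30%, 4.61 to 6.06%, beside 16.4%), the highest of the 5 times. When each list was limited to its higher-scored peaks, above the median, W12 was higher than W2, at 1.61% (1.23 to 2.06%) beside 1.24% (0.911 to 1.64%). At W6 it was 141 (3.72%, 3.14 to 4.37%, beside 16.9%). At W12 it was 180 (4.74%, 4.09 to 5.47%, beside 13.2%). The D0 share is low in part by the rule, since a place without H3K4me1 at D0 rarely had H3K27ac then. It was 0.156% in the other WT gains without a D0 domain. In lists made from many cells, a mark on fewer cells and a weaker mark per cell cannot be told apart.

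**Figure D1:**
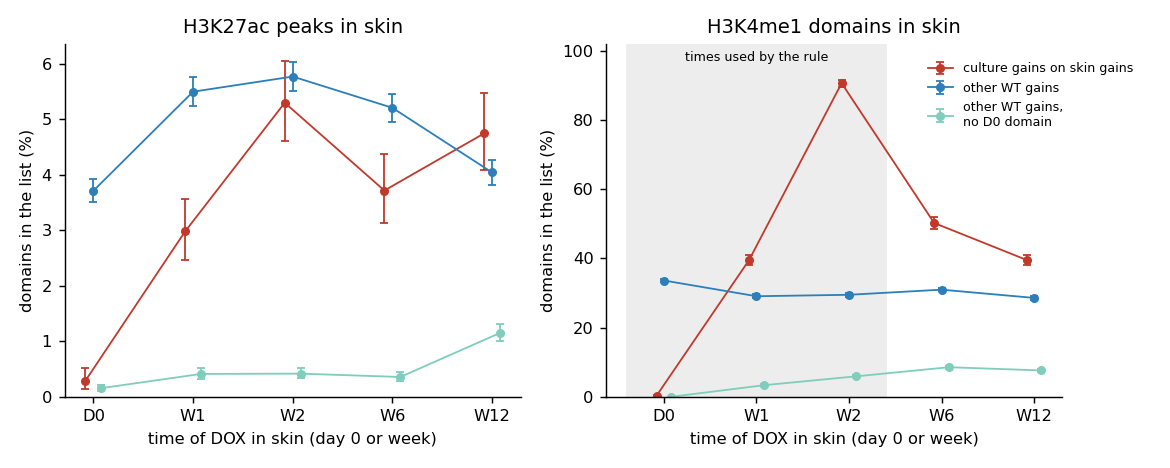
Percentage of culture domains that overlapped an H3K27ac peak (left) or an H3K4me1 domain (right) of skin at D0, W1, W2, W6 and W12. Points are shares and bars their exact 95% intervals, and in shared gains H3K27ac went from 0.290% at D0 to 5.30% at W2, and H3K4me1 from 90.7% at W2, a time the rule used, to 50.3% at W6 and 39.6% at W12.

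Over the same times the other WT gains started higher and changed less, from 3.71% at D0 to 5.77% at W2 and 4.04% at W12. New H3K27ac, meaning a peak at W2 and none at D0, was found on 197 shared gains (5.19%, 4.51 to 5.95%), beside 3.35% of the other WT gains, 0.352% of those without a D0 domain and 6.25% of all WT domains. The difference from the other WT gains was 1.84 points (1.14 to 2.62). Shared gains were also wider (medians of 866 and 603 bp), and the part of width in this difference was not tested. By the rule, 90.7% of shared gains also lay in a W2 H3K4me1 domain. Of the other WT gains 29.5% did, and of those without a D0 domain 5.92%. The comparison of new H3K27ac with both sets is therefore not independent of the rule, and the part of the rule was not tested. When only the midpoint of each domain had to lie in the other interval, 2.84% of shared gains had new H3K27ac and the difference was 0.30 points (−0.23 to 0.92). Restricted to H3K27ac peaks above the median score of their list, it was −0.24 points (−0.57 to 0.18). The share of shared gains with H3K27ac at any time after D0 and none at D0 was 11.4% (433 domains), beside 14.3% of all WT domains. Conversely, only 7 shared gains had a D0 peak and none at W2, beside 4.69% of all WT domains.

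The peaks on shared gains had lower fold enrichment than their lists as a whole. At W2, 214 of 29081 H3K27ac peaks touched a shared gain, with a median fold enrichment of 4.91 beside 6.32 over the list. At W1 the medians were 3.85 and 5.39, and at W6 they were 5.07 and 6.56. At W12 they were 4.81 and 4.96. The gap was thus smallest in the graft samples, where the median of the whole list was also the lowest of the 5 times. The W12 H3K27ac list is labelled differently from those of the other times. Whether its peaks were called with the same settings is not given.

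Few domains were called at more than 1 time. A peak was absent at every time on 3351 shared gains (88.3%), present at 1 time on 309, at 2 times on 84, at 3 on 36, at 4 on 14 and at all 5 on 1. Of the 111 shared gains first acetylated at W1, 53 had a peak at W2, 32 at W6 and 22 at W12. Of the 144 first acetylated at W2, 38 had a peak at W6 and 29 at W12. A further 68 appeared first at W6 and 110 at W12, and 18 of those that appeared at W6 were still called at W12. W12-only acetylation was thus the most frequent single history, followed by W2 only (91), W1 only (52) and W6 only (50). In the other WT gains without a D0 domain H3K27ac was also most frequent at W12, on 1.15% beside 0.417% at W2. The W12 list held the most H3K27ac peaks of the 5 times (33985), with the lowest median score (39).

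The 28 shared gains that were acetylated at W2, W6 and W12 and not at D0 are the exception. They lay near 26 genes, and 20 of them (71.4%) were on gains of both W1 and W2, beside 24.4% of all shared gains. Of the 28, 14 already had a W1 peak (2.98% of all shared gains had one). Found with neither SOX9 mutant were 18 (64.3%, 44.1 to 81.4%), an interval that includes the 76.3% of all shared gains. All 28 were also in H3K4me1 domains at W6 and W12. They were long domains, with a median of 1730 bp. They were selected by these H3K27ac calls, so that their folds are a description.

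**Figure D2:**
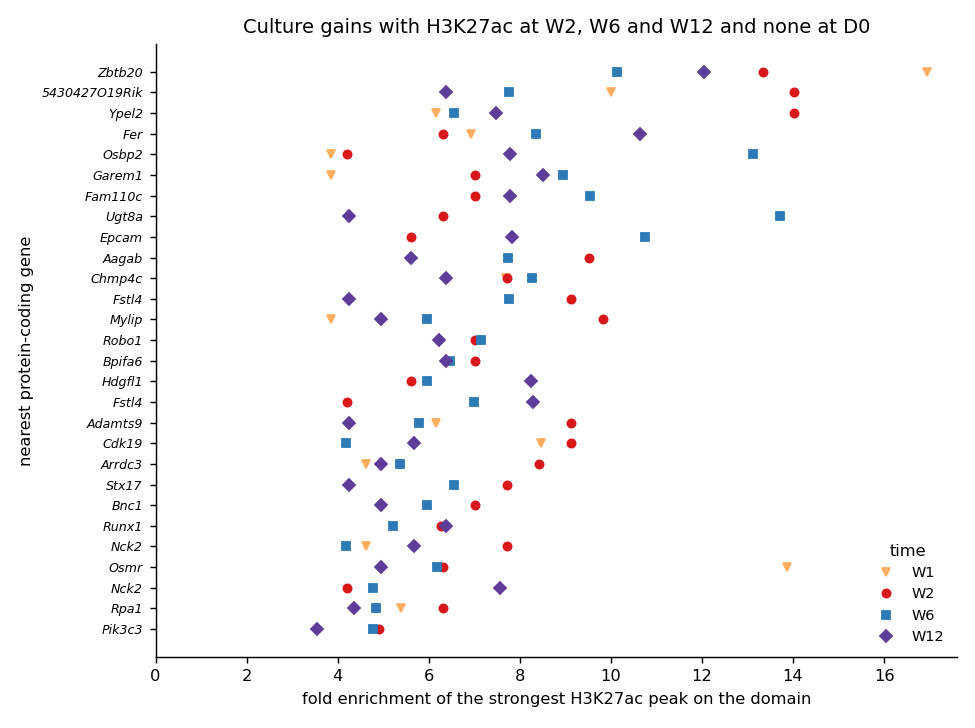
Fold enrichment of the strongest H3K27ac peak on each of the 28 shared gains that were acetylated at W2, W6 and W12 and not at D0, by the nearest protein-coding gene; symbols are time points, and a missing W1 symbol means that no W1 peak was called. The Zbtb20 domain had the highest mean fold, from 10.1 to 16.9 over the 4 times.

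The domain in an intron of Zbtb20 (chr16:43556548-43559381, 46240 bp from the start site) had no H3K27ac peak at D0. At W1 its fold enrichment was 16.9, followed by 13.3 (W2), 10.1 (W6) and 12.04 (W12). It was also called with ΔHMG and not with ΔTA. The domain upstream of Osmr, which encodes the oncostatin M receptor (chr15:6878371-6880141), had a fold of 13.9 at W1, followed by 6.32, 6.17 and 4.96 at the later times, and was found with neither mutant. At Ypel2 (chr11:87005031-87007427) the highest fold came at W2 (14.03), beside 6.16 at W1, 6.56 at W6 and 7.47 at W12. At each of these 3 domains H3K27ac was thus called at all 4 times after D0, with its highest value at W1 or W2.

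The Runx1 intronic domain (chr16:92725419-92726381, score 85) was called at W2 (fold 6.28), W6 (5.21) and W12 (6.38), and at neither D0 nor W1. It was found with neither mutant, and its 1 kb window held 4 SOX matches. Near Epcam, which encodes an epithelial adhesion molecule, a domain 31880 bp upstream had folds of 5.61 at W2, 10.7 at W6 and 7.84 at W12. An intronic domain of Bnc1, a zinc-finger gene of proliferating keratinocytes, had folds of 7.02, 5.96 and 4.96. Among the others, Fer (10.6 at W12), Ugt8a (13.7 at W6) and Osbp2 (13.1 at W6) had their highest folds after W2.

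H3K27ac in skin went with how strongly the domain was called in culture. When the WT gains were split into 4 classes at scores of 22, 33 and 52, the quartiles of all culture gains, new H3K27ac at W2 was found on 1.38% of 580 shared gains in the lowest class, 3.88% of 877, 5.57% of 1006 and 7.43% of 1332 in the highest. In the other WT gains these shares were 2.93, 2.97, 3.26 and 4.28%. The difference between both sets was −1.55 points (−2.35 to −0.18) in the lowest class, 0.91 (−0.25 to 2.45) and 2.31 (0.98 to 3.94) in the middle classes and 3.15 (1.78 to 4.75) in the highest. Width was larger at higher scores as well, from a median of 559 bp in the lowest to 1088 bp in the highest class of shared gains (504 and 745 bp in the other WT gains), and its part in these shares was not tested class by class. The part of the rule in the differences between both sets was not tested either.

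**Figure D3:**
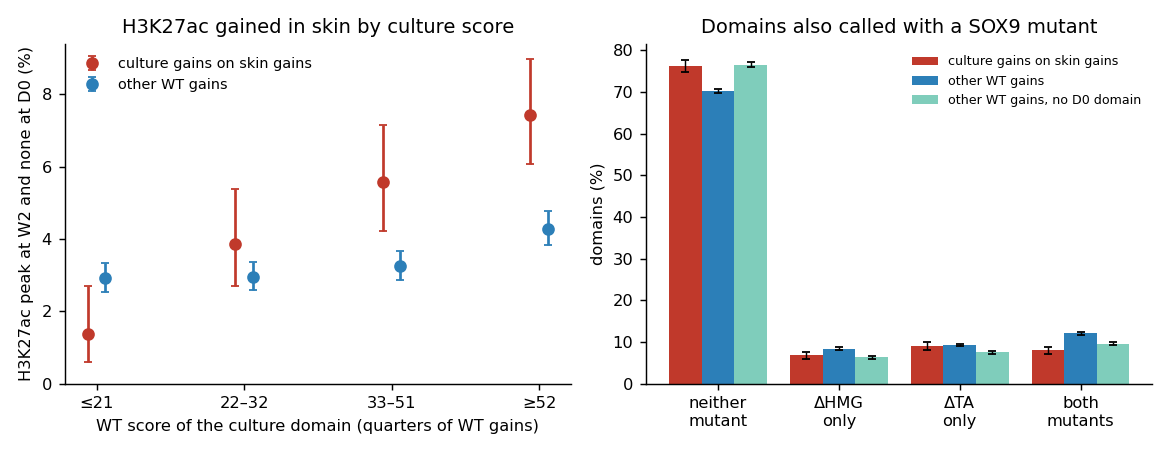
Left, percentage of culture gains with an H3K27ac peak at W2 and none at D0, by WT score; right, percentage called with neither, 1 or both SOX9 mutants. Bars on points and columns are exact 95% intervals. In shared gains the left-hand share goes from 1.38 to 7.43%, and 76.3% of them were found with neither mutant, as were 76.5% of other WT gains without a D0 domain.

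The time at which H3K4me1 had appeared in skin divided the shared gains further. On gains of both W1 and W2 there were 925 shared gains, on gains of W1 only 501 and on gains of W2 only 2369. New H3K27ac at W2 was found on 13.2% of the first (122 domains), 4.39% of the second (22) and 2.24% of the third (53). The first exceeded the third by 10.95 points (8.81 to 13.3), and the second exceeded it by 2.15 (0.53 to 4.38). The 925 were also the highest scored in culture, with a median of 47 beside 43 and 37. They were the widest as well, with a median of 1051 bp beside 852 and 807 bp, and the part of width in these differences was not tested.

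H3K4me1 itself was also found at W6 and W12 at many of the shared gains. By the rule, 39.5% of them lay in an H3K4me1 domain at W1 (55.9% of all WT domains) and 90.7% at W2 (58.4% of all). At W6, 1907 of 3795 lay in an H3K4me1 domain (50.3%, 48.7 to 51.9%, beside 61.3% of all WT domains), and at W12 1501 did (39.6%, 38.0 to 41.1%, beside 59.3%). The lists of W6 and W12 were not used to choose the members, but the comparison with other gains is not independent of the rule. By the rule all members lay in a skin domain of W1 or W2. Of the other WT gains, 56.6% lay in no skin domain at any time. The differences below are therefore in part set by the rule. In the other WT gains the shares at W6 and W12 were 31.0 and 28.6%, and in those without a D0 domain 8.55 and 7.61%. The differences from the other WT gains were 19.3 points at W6 (17.6 to 20.95) and 11.0 at W12 (9.34 to 12.6). Shared gains on gains of both W1 and W2 lay in such domains most often, 83.4% at W6 and 64.7% at W12. For those on W1 only the shares were 56.5 and 34.5%, and on W2 only 36.0 and 30.8%. The W1-only members were on no W2 gain, so that a domain found there at W6 or W12 need not have been kept since W1. At W6 the W1-only members exceeded the W2-only members by 20.5 points (15.7 to 25.2), and at W12 by 3.72 points, with an interval that includes 0 (−0.74 to 8.36).

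To ask the same question from the side of skin, domains gained in skin were divided by what culture showed at the same place. Of 4138 W1 gains, 1372 were touched by a culture gain, 1249 only by a WT domain also called without DOX and 1517 by no WT domain. New H3K27ac at W2 was found on 12.4% of the first (10.7 to 14.3%), 12.25% of the second (10.5 to 14.2%) and 3.89% of the third (2.97 to 4.99%), beside 9.23% of all W1 gains. The gains touched by a culture gain exceeded those without a WT domain by 8.50 points (6.53 to 10.5), while they differed by 0.14 points (−2.40 to 2.66) from those at which culture cells had a domain without DOX. Among 14670 W2 gains (3.49% with new H3K27ac) the 3 shares were 6.81% of 3171, 6.13% of 3081 and 1.27% of 8418, with differences of 5.54 (4.67 to 6.50) and 0.68 points (−0.55 to 1.90). With only H3K27ac peaks above the median score, the differences from the gains without a WT domain were 2.48 points for W1 (1.49 to 3.599) and 1.37 for W2 (0.975 to 1.86).

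**Figure D4:**
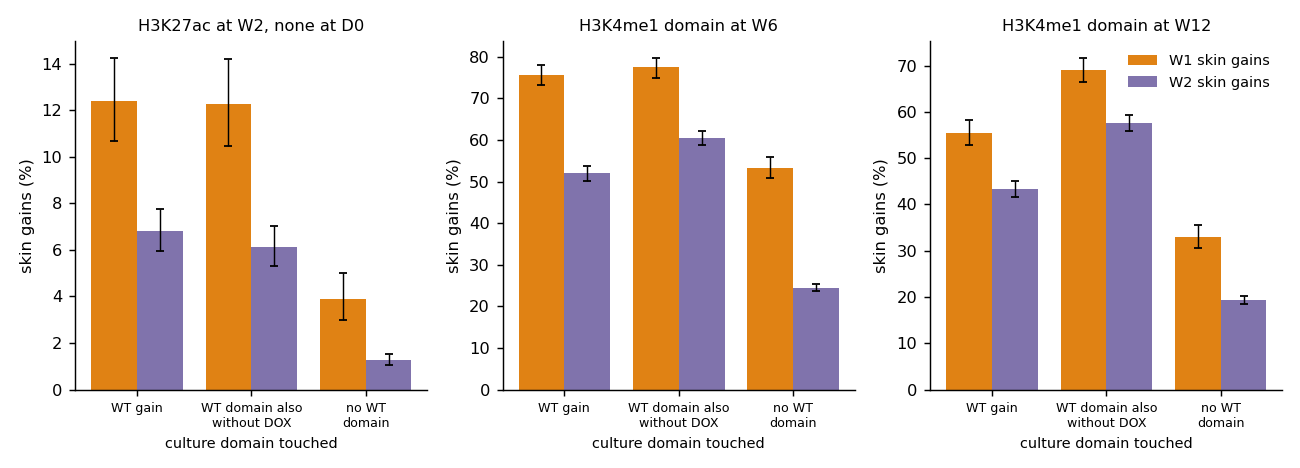
Percentage of H3K4me1 domains gained in skin at W1 or W2 that had new H3K27ac at W2 (left) or an H3K4me1 domain at W6 (middle) and W12 (right), by the culture domain that touched them; bars are exact 95% intervals. In each panel the gains without a WT domain are lowest, at 3.89 and 1.27% for new H3K27ac.

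H3K27ac and H3K4me1 of skin gains at later times had a different order of classes. An H3K27ac peak at W12 and none at D0 was found on 8.53% of W1 gains touched by a culture gain, 13.0% of those with a WT domain also called without DOX and 3.63% of those with no WT domain (8.07% over all). H3K27ac peaks at D0 were found on 0.875, 1.04 and 0.659% of the 3 classes (0.846% over all). For H3K4me1 at W12, 55.5% of W1 gains touched by a culture gain overlapped an H3K4me1 domain, beside 69.1% of those with a WT domain also called without DOX and 33.0% of those with none (51.4% over all). For W2 gains these shares were 43.3, 57.6 and 19.4% (32.6% over all). Gains touched by a culture gain were therefore lower than those with a domain already present without DOX, with differences of −13.6 points for W1 (−17.2 to −9.86) and −14.3 for W2 (−16.8 to −11.9). At W6, where 68.0% of all W1 gains and 38.0% of all W2 gains were H3K4me1 domains, the corresponding differences were −1.77 points for W1 gains (−5.00 to 1.49), an interval that includes 0, and −8.56 for W2 gains (−11.0 to −6.10). The skin gains touched in culture were wider, with medians of 2000 beside 1600 bp at W1 and 2400 beside 2000 bp at W2 for those with no WT domain. With midpoints in place of overlap, the differences in new H3K27ac from the gains without a WT domain were 3.96 points for W1 (2.56 to 5.50) and 2.10 for W2 (1.56 to 2.73).

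Most shared gains were not called in cells with either SOX9 mutant. Of the 3795, 561 overlapped a domain of the ΔHMG list (14.8%, 13.7 to 16.0%), beside 71.1% of all WT domains, and 643 overlapped one of the ΔTA list (16.9%, 15.8 to 18.2%), beside 69.5%. With neither mutant there were 2894 or 76.3% (74.9 to 77.6%), beside 23.5% of all WT domains. With ΔHMG and not ΔTA there were 258 (6.80%, beside 6.93%), with ΔTA and not ΔHMG 340 (8.96%, beside 5.33%), and with both 303 (7.98%, beside 64.2%). The list of WT cells without DOX fixed the members, so that domains of any other list that resemble it are few by construction.

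Compared with the other WT gains, shared gains were found with neither mutant more often, by 6.09 points (4.62 to 7.52). This difference was not seen against the other WT gains without a D0 domain, at −0.24 points (−1.73 to 1.22). Above the median WT score the difference from the other WT gains was 2.16 points, with an interval that includes 0 (−0.23 to 4.45), and in the highest score class it was 0.76 (−1.92 to 3.33). Shared gains called with ΔTA alone differed from the other WT gains by −0.33 points (−1.26 to 0.67), and from those without a D0 domain by 1.43 points (0.49 to 2.45). Those called with both mutants differed from the same sets by −4.14 (−5.04 to −3.17) and −1.62 points (−2.54 to −0.63).

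The classes also differed in skin. At W12, 50.2% of the shared gains called with both mutants lay in H3K4me1 domains, beside 48.8% with ΔTA only, 41.9% with ΔHMG only and 37.15% with neither mutant. Members with neither mutant were lower than those with both by 13.0 points (interval of the difference −18.9 to −7.15). At W6 the difference was −4.82 points, with an interval that includes 0 (−10.6 to 1.10). New H3K27ac at W2 was found on 4.87% of members with neither mutant, 4.26% with ΔHMG only, 7.94% with ΔTA only and 5.94% with both, and the difference of neither from both was −1.07 points (−4.40 to 1.24). Score and width were also higher with both mutants, at medians of 43 and 985 bp beside 39 and 853 bp.

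SOX letters were frequent at the centre of shared gains. A match to ACAAAG or ACAATG on either strand was found in the central 1 kb of 3396 of 3795 (89.5%, 88.5 to 90.4%), beside 87.3% of the other WT gains, 76.8% of domains also called without DOX and 79.9% of all WT domains. The same letters read backward, which keep the base composition, were found in 77.1, 75.8 and 70.0% of the first 3 sets. Shared gains held a mean of 2.30 matches per window beside 1.49 for the backward letters. GC content of the windows was 43.85% ± 4.51 (SD over domains, n = 3795) in shared gains, 43.8% in the other WT gains and 47.2% in domains also called without DOX. The excess over the other WT gains was 2.21 points (1.13 to 3.22), and 0.21 points (−0.89 to 1.25) against those without a D0 domain.

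Of both forms, ACAATG set the shared gains further apart from the other WT gains. Neither form alone, nor the pair below, was compared with the other WT gains without a D0 domain. It was found in 60.5% of them, beside 55.7% of the other WT gains and 46.1% of all, a difference from the other WT gains of 4.80 points (3.14 to 6.44). ACAAAG was found in 73.8%, beside 72.1 and 64.4%, a difference of 1.68 points (0.17 to 3.14). The facing SOX pair was rare. It was found in 52 shared gains (1.37%, 1.03 to 1.79%), beside 0.867% of the other WT gains and 0.541% of all WT domains, an excess of 0.50 points (0.16 to 0.94). Read backward, the pair was in 0.659% of shared gains. The Insc and Ptprc pairs printed above were in domains called with neither mutant. The Camkmt pair was in a domain called with ΔTA and not with ΔHMG, and the Pla2g5 pair in a domain called with both mutants. None of these 4 domains had an H3K27ac peak at W2.

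**Figure D5:**
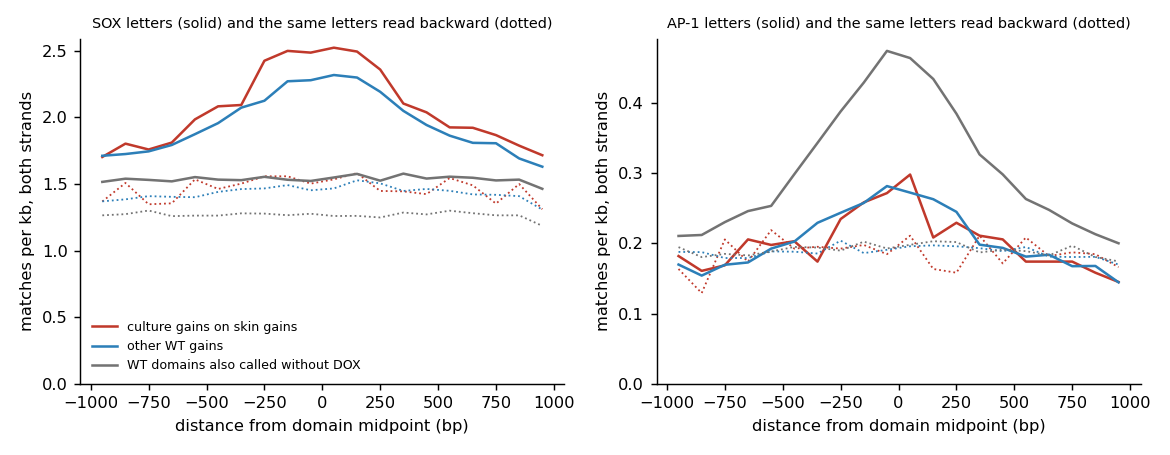
Matches per kb to SOX letters (left, ACAAAG or ACAATG) and AP-1 letters (right, TGAGTCA) on both strands against the distance in bp from the domain midpoint, in bins of 100 bp; solid lines are the letters and dotted lines the same letters read backward. SOX letters reached 2.52 per kb beside the midpoint of shared gains and 1.70 at the left end of the window; AP-1 letters reached 0.474 in domains also called without DOX and 0.298 in shared gains.

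In shared gains and in the other WT gains SOX letters were denser near the midpoint, at 2.52 and 2.32 per kb just right of it, than at the left end of a 2 kb window, at 1.70 and 1.71. In domains also called without DOX the profile was flat, between 1.46 and 1.58 per kb over all bins. With the score of the domain the share with a match went from 86.4% in the lowest score class to 91.7% in the highest. Of shared gains with a W2 H3K27ac peak 88.1% had a match, and of those without one 89.6%, a difference of −1.51 points whose interval includes 0 (−6.80 to 2.42).

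AP-1 letters (TGAGTCA, either strand), the site of FOS and JUN dimers, divided the shared gains by mutant class instead. They were found in 20.45% of shared gains (19.2 to 21.8%), 21.0% of the other WT gains and 28.6% of all WT domains. Of shared gains found with neither mutant 18.0% held them, and of those found with both mutants 33.7%, a difference of −15.7 points (−21.3 to −10.4). In the other WT gains these shares were 18.6 and 30.7%, a difference of −12.15 points (−13.75 to −10.6). Read backward, the AP-1 letters were in 17.0 and 17.5% of the shared gains of these classes, and GC content was 43.55% ± 4.39 and 45.3% ± 4.47 (SD over domains, n = 2894 and 303). SOX letters went the opposite way, with 90.6% of shared gains with neither mutant and 86.5% of those with both, a difference of 4.10 points (0.52 to 8.53).

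Of 16 letter patterns searched, 2 beyond the SOX forms had a share in shared gains that differed from the other WT gains with an interval that excludes 0. The homeodomain letters TAATTA were found in 28.0% of shared gains, 25.2% of the other WT gains and 21.9% of all WT domains, a difference of 2.82 points (1.33 to 4.35). Read backward, they were in 26.2% of shared gains. The forkhead letters TGTTTAC were found in 16.1, 14.3 and 13.3%, a difference of 1.79 points (0.58 to 3.05), and read backward they were more frequent, in 23.2, 23.0 and 19.9%. Neither pattern was compared with the other WT gains without a D0 domain. For the remaining patterns the intervals of the difference include 0. RUNX letters (TGTGGT) were found in 55.05% of shared gains beside 56.1% of all WT domains, GATA letters (AGATAA) in 48.4% beside 44.1%, TEAD letters (GGAATG) in 49.3% beside 49.7% and ETS letters (GGAAGT) in 48.0% beside 48.9%. Letters of TCF and LEF (CTTTGAA) were found in 25.35% beside 22.1%, KLF letters (CACACCC) in 20.7% beside 24.9%, and GLI letters (TGGGTGGTC) in 0.474% beside 0.776%. For the longer patterns of the p53 family the shares were 4.64 and 4.47%, for NF-κB 2.77 and 3.10%, for CTCF 1.05 and 1.42%, and for NFI 0.0264 and 0.155%. A match of letters in a window is a description and not a binding site.

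The shared gains lay nearest to 2436 protein-coding genes, of which 1716 had 1 and 80 had 5 or more. Sema6a, which encodes a transmembrane semaphorin, had 13 shared gains among 29 culture gains, of which 11 were found with neither mutant, 7 were H3K4me1 domains at W6 and 9 at W12. Adgrl3 and Adgrl2, which encode latrophilin adhesion receptors, had 12 each, and Zbtb20 also had 12. Tcf4, an E-protein gene, and Elmo1, which encodes a partner of DOCK proteins in RAC activation, had 11 each. Pdzrn3 had 10, Efnb2, an ephrin ligand gene, and Meis1, a homeobox gene, had 9 each, and Zfp608 had 8. At Meis1 the 9 shared gains were 52.9% of its 17 culture gains, the highest share of these genes, and lay between 125799 and 396198 bp from a start site. The lowest shares were at Zfp608 (17.8% of 45 culture gains), Efnb2 (19.15% of 47) and Adgrl2 (22.2% of 54), beside 11.2% of all culture gains. H3K27ac at W2 was rare even at these genes of highest count, with 2 such domains each at Elmo1 and Pdzrn3, 1 at Zbtb20 and none at the other 7.

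By score, the strongest shared gain lay 196052 bp upstream of Sntb1 (chr15:56103001-56103497, score 336, fold 10.6). It was on a W2 gain, found with neither mutant, and without H3K27ac at any time. The next, 38260 bp upstream of Strap (chr6:137695476-137696818, score 305), was on gains of both W1 and W2 and had H3K27ac at W1 (fold 6.16), W2 (4.21) and W6 (3.58). The other 8 of the top 10 were nearest to Btn1a1, Snx16, Chic2, Sbspon, Alg10b, Mpzl1, Otol1 and Nr4a3. Of these 10, 7 were found with neither mutant and 2 had an H3K27ac peak at some time, at Strap and at Sbspon (fold 3.54 at W6).

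The 10 shared gains with the strongest new H3K27ac peak at W2 were nearest to Btd (fold 14.7), 5430427O19Rik and Ypel2 (14.03 each), Zbtb20 (13.3), Gm14325, Ccn2 and Mylip (9.82 each), Aagab (9.52), and Cdk19 and Fhit (9.12 each). Their culture scores ranged from 20 at Btd to 147 at Aagab. The Ccn2 domain (chr10:24647296-24649442) was acetylated at W2 only and was called with both mutants. The Btd domain had folds of 6.93 at W1, 14.7 at W2 and 6.30 at W6 and none at W12.

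Shared gains were also counted by nearest gene in 11 gene lists, some of which share genes. The rule, which requires a skin gain, may bear on all of these shares, high or low, and its part was not tested. The shares were not compared with the other WT gains without a D0 domain. Among 24 markers of hair follicle stem cells, 13 were nearest to 31 shared gains, which is 0.817% of shared gains (0.556 to 1.16%) beside 0.307% of the other WT gains (0.247 to 0.376%) and 0.326% of all WT domains. Trps1, a GATA-type factor of follicles and cartilage, had 8 of them, Itga8, an integrin gene, had 5, and Tnc, which encodes tenascin C, had 3. Of the 31, 24 were found with neither mutant, 3 had H3K27ac at W2 and 8 at some time after D0. Over all shared gains, 76.3% were found with neither mutant and 5.30% had H3K27ac at W2. H3K27ac after D0 and none at D0 was found on 11.4%. Hair follicle transcription factors were nearest to 14 (0.369%, beside 0.430% of the other WT gains). These were 3 at Foxc1, 2 each at Barx2, Msx2, Nfib and Tcf7l1, and 1 each at Foxp1, Id2 and Lef1, and none of the 14 gained H3K27ac after D0.

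The SOX family had 20 shared gains (0.527%, beside 0.383% of the other WT gains). Of these, 5 each were at Sox13 and Sox5, 3 at Sox2, 2 each at Sox11 and Sox9, and 1 each at Sox4, Sox6 and Sox10. A domain 116775 bp upstream of Sox2 had H3K27ac at W2 (fold 4.91). RUNX genes had 6 (0.158%, beside 0.0600% of the other WT gains and 0.0974% of all WT domains), of which 4 were nearest to Runx1. The Hedgehog list had 7 (0.184%, beside 0.159% of all WT domains and 30 of the 29993 other WT gains), with 4 at Gli3, a transcription factor of the pathway, and 2 at Gas1, a co-receptor. The Wnt list had 16 (0.422%, beside 0.233% of the other WT gains and 0.367% of all), with 4 at the receptor gene Fzd8 and 3 at Fzd1, and a domain 32064 bp upstream of Fzd4 had H3K27ac at W2 (fold 6.32). BMP and TGF-β genes had 24 (0.632%, beside 0.543%), with 5 at the ligand gene Bmp2 and 4 at Inhba. Genes of cytoskeleton, migration and epithelial-mesenchymal transition had 17 (0.448%, beside 0.530%), 5 of them at Twist2.

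Epidermal genes had few. The rule takes only skin domains without overlap at D0, whereas 33.6% of the other WT gains lay in a D0 domain. The part of the rule in these low shares was not tested. Epidermal transcription factors were nearest to 6 shared gains (0.158%, 0.0580 to 0.344%) beside 0.370% of the other WT gains (0.305 to 0.446%) and 0.495% of all WT domains, 1 each at Gata3, Grhl2, Klf4, Maf, Prdm1 and Rora. All 6 were found with neither mutant (76.3% of all shared gains were) and none was acetylated after D0 (11.4% of all shared gains were). Epidermal structural genes had 4, at Dst (2), Lama3 and Lor (0.105%, beside 0.223% of the other WT gains). AP-1 genes, a short list, had 4 at Atf3 (2), Fos and Fosl2 (0.105%, beside 0.0567% of the other WT gains and 0.103% of all WT domains). Within 100000 bp of Trp63, of Vim and of Sox9 itself there was none, among 6, 5 and 5 culture gains. The 2 shared gains whose nearest gene was Sox9 lay farther away. Gata3 had 1 in that range, in an intron of Taf3. Krt5 had 1 of 6, a domain 230 bp upstream of Krt72 (chr15:101786690-101788343) that was kept at W6 and W12 without H3K27ac. Runx1 had 2 of 6, the acetylated intronic domain printed above and a second intronic domain of score 18 (chr16:92816799-92817197) without H3K27ac at any time.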

How the data were processed

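Chromatin was profiled by MINT-ChIP, with reads assigned to samples by barcode and libraries of a high and a low MNase digest. Per the study's methods, the authors trimmed reads with Skewer and aligned them to GRCm38/mm10, merged replicates, and called H3K4me1 domains of skin with epic2 and H3K27ac peaks with MACS2. The submitters' processing notes name Bowtie2 2.2.9, SAMtools 1.9, MACS2 2.1.1, SICER 0.0.36, deepTools 2.5.4, Picard and bcl2fastq. How the culture lists were called apart from the skin lists is not given in the sources used here.

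The deposited skin H3K4me1 lists give a p-value per domain in bins of 200 bp. The deposited H3K27ac and culture lists give, as the authors' peak caller wrote them, a whole-number score of about 10 times the −log10 q-value, a fold enrichment over local background, the −log10 q-value and, for H3K27ac, the offset of the summit. Files of barcodes were not used.

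Intervals overlapped when they shared 1 bp or more, and 30 intervals off the chromosomes of the main assembly were set aside. Sequence was RefSeq GRCm38.p6 and annotation GENCODE M21 basic, of the same build. Each domain took its nearest protein-coding start site, and letters were searched on both strands in 1000 bp at the domain midpoint. Intervals of shares are Clopper-Pearson and of differences Newcombe, at 95%, and cover counting error only, since the lists pool replicates and hold no read counts. Overlap counting was tested on simulated intervals. Domains were named if they were in the top 10 by score or by new W2 fold, near a fixed locus, among up to 4 examples of a gene list, or acetylated at W2, W6 and W12 and not at D0. The set of domains, the gene lists and the comparisons were chosen with earlier results of these data known. Python 3.11.15, NumPy 2.4.6, pandas 2.3.3, SciPy 1.17.1 and matplotlib 3.10.9 were used.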

Additional observations from a re-analysis of the deposited data

How the results depend on the processing

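No paired analysis was possible because the deposited lists pool the replicates. For the same reason no replicate could be left out. Over 14 alternatives, 167 values of 19 results were recomputed: 113 stayed close to the reported value, 52 moved and 2 changed sign, and 51 of 53 differences kept their sign. Close means within its interval, and for 6 numbers of domains (3294 to 3906) within 1.5 times. The comparison by midpoints and that with other WT gains without a D0 domain were chosen after seeing the data. Causes of these shifts were not tested.

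With only the stronger WT domains, above the median score, there were 1628 shared gains. In time order from W1, H3K27ac was on 4.12, 7.31, 5.34 and 6.39% of them, and 7.13% had new H3K27ac. ΔHMG reached 16.0%, ΔTA 19.5%, H3K4me1 at W6 54.8% and at W12 41.95%, and SOX letters 91.4%. Differences from the other WT gains were 2.92 points for new H3K27ac, 24.8 for W6 H3K4me1 and 2.16 for neither mutant (−0.23 to 4.45), and that of W2 skin gains was 7.04.

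With W1 gains only there were 1426. H3K27ac shares from W1 to W12 were 6.73, 10.3, 7.15 and 7.01%, with 10.1% for new peaks. H3K4me1 was found on 73.9% at W6 and 54.1% at W12, with differences of 6.74 points for new H3K27ac and 42.9 for W6.

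With H3K27ac peaks above their median score the shares from D0 to W12 were 0.0527, 0.527, 1.24, 0.764 and 1.61%, with 1.19% for new peaks, so that W12 and not W2 was highest. The difference for new peaks became −0.24 points, and those of skin gains 2.48 (W1) and 1.37 (W2).

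By midpoints the shares from D0 to W12 were 0.0279, 1.42, 2.87, 1.87 and 1.87%, with 2.84% for new peaks, 9.22% with ΔHMG and 11.0% with ΔTA. The difference for new peaks was 0.30 points, and those of skin gains 3.96 (W1) and 2.10 (W2).

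Against other WT gains without a D0 domain the differences were 4.84 points for new H3K27ac, 41.7 for W6 H3K4me1, 0.21 for SOX letters and −0.24 for neither mutant. That of W6 H3K4me1 is in part set by the rule, which required a skin domain at W1 or W2. That of new H3K27ac is not independent of the rule either, and the part of the rule was not tested. At limits of 1000 and 10000 bp, 93.6 and 68.4% were distal. In windows of 500 and 2000 bp, 69.3 and 98.4% held SOX letters, and the wider window gave a difference of 0.89 points.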

Other observations

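H3K27ac at W12 alone was called on 110 shared gains. Of these, 60 lay on gains of W2 only (2369 of all 3795 shared gains did), 74.5% were found with neither mutant (76.3% of all shared gains), and 90.9% had SOX letters in the central 1 kb (89.5%). H3K4me1 domains were found on 67.3% of them at W6 (50.3% of all shared gains) and 62.7% at W12 (39.6%). They were also longer, with a median of 1324 bp beside 866 bp. They were nearest to 106 genes. The strongest W12 peak (fold 13.1) lay 2258 bp from Lrp6, which encodes a Wnt co-receptor (chr6:134569171-134570407, GRCm38). The next lay 305 bp from Trps1 (fold 11.3, chr15:50890346-50890720), and Qrsl1 (8.50) and Dlg2 (7.79) followed. W12 samples were grafts and the other times were not. The graft, the time and any difference in how the W12 peaks were called can therefore not be told apart. In turn, 51 of the 91 shared gains with H3K27ac at W2 alone lay on gains of both W1 and W2.

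Shared gains within 2500 bp of a start site numbered 404. Of these 3.71% had H3K27ac at W1 (2.98% of all shared gains) and 71.8% were found with neither mutant (76.3%). Their H3K4me1 share at W6 was 52.0% (95% interval 47.0 to 56.95%), beside 50.3% of all shared gains.

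Across chromosomes other than Y the percentage of culture gains that were shared with skin ranged from 8.50% on X and 8.60% on chromosome 7 to 13.8% on chromosome 14. On Y, with 2 culture gains, none was shared.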
